A study of Homo sapiens with 6 samples.

Results

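Carbonic anhydrases and the bicarbonate transporters that work beside them were followed in oral squamous carcinoma cells kept at low oxygen. The 6 genes were taken by symbol from the deposited table of 21776 genes and comprise the carbonic anhydrases CA2, CA9, CA12 and CA13, the anion exchanger SLC4A2 and the sodium bicarbonate cotransporter SLC4A7. The study compared the RNA of cells held for 12 h under hypoxia with that of cells held under normoxia, with 3 libraries per condition. The hypoxia libraries came from a tri-gas incubator with 1% O2, 5% CO2 and nitrogen as the balance, and the normoxia libraries from an incubator with 5% CO2 and 95% air at 37 °C. All 6 libraries are labelled as SCC25, an established line of oral squamous cell carcinoma, of wild-type genotype, grown in DMEM/F12 with 10% fetal bovine serum and antibiotics, whereas the legend that accompanies the transcriptome in the study names SCC9, another oral squamous carcinoma line. A single line under a single exposure limits the model to those cells. The labels do not say whether the replicates were separate cultures, so the p-values measure only the spread between these libraries, which may be technical.

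The hypoxia libraries, replicates 1 to 3, summed to 30186813, 36076088 and 32272716 counts over all genes, and the normoxia libraries to 37278703, 29637189 and 29981208 counts. Values are given in the order of the replicates throughout. Squamous markers were read before the results. KRT5, a basal keratin, had 3525, 3903 and 3664 counts under hypoxia and 4424, 3494 and 4065 under normoxia, and the epithelial cadherin CDH1, the epithelial adhesion molecule EPCAM and the basal transcription factor TP63 were also present. KRT14, the usual partner of KRT5, was absent from the hypoxia libraries and had 1 count in normoxia replicate 2. Of the 9 squamous markers tested, 4 rose, 4 fell and 1 did not pass the test described below. Over all tested genes 39.2% were higher and 38.5% lower, so these counts are near the background. KRT6A, a keratin of stressed epithelium, fell by 4.12 on the log2 scale. Of 13 markers of leukocytes, endothelium and fibroblasts, 12 were in the table and 5 passed the filter on low counts. Their summed level was 56.4, 57.0 and 57.9 counts scaled to library size (CPM) under hypoxia and 37.9, 36.3 and 42.2 CPM under normoxia, and CD68 was the most abundant. The defining genes PTPRC (leukocytes) and CD3E (T cells) had at most 2 and 1 counts in any library, and PECAM1 (endothelium) had 5, 9 and 10 counts under hypoxia, whereas the normoxia libraries had 2, 0 and 0. Of the 5 that passed the filter, CD14, COL1A1 and CDH5 rose under hypoxia, beside 39.2% of all tested genes. CDH5 had 0.242, 0.315 and 0.744 CPM under normoxia and passed the filter through its hypoxia libraries. The part of CD14, COL1A1 and CDH5 in the results below was not tested.

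Carbonic anhydrases interconvert carbon dioxide and bicarbonate, with release or uptake of a proton. CA9 and CA12 are membrane enzymes whose catalytic side faces the outside of the cell, whereas CA2 and CA13 work in the cytosol. CA9 is a textbook target of the hypoxia-inducible factors and a widely used marker of hypoxic tumours. Bicarbonate made in these reactions is carried across the membrane by the SLC4 proteins: SLC4A2 (also called AE2) exchanges bicarbonate for chloride and so acidifies the cytosol, and SLC4A7 (NBCn1) brings in sodium with bicarbonate and so alkalinises it.

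CA9 and CA2 rose under hypoxia, SLC4A7 and SLC4A2 fell, CA13 did not pass the test and CA12 was too low to be tested. Expression was compared by edgeR's quasi-likelihood test with Benjamini-Hochberg adjustment over the 14255 genes that passed the filter on low counts, at an adjusted p-value under 0.05. Of these genes 39.2% were higher and 38.5% lower under hypoxia, so that 2 higher and 2 lower genes among 5 tested is near the background. At a log2-fold change over 1 in addition, 19.9% of the tested genes were higher, and CA9 and CA2 were among them. Under −1, 10.5% were lower, and SLC4A7 was among them whereas SLC4A2 was not. The conditions did not overlap in CPM for 4 of the 5 tested genes, against 80.5% of all tested genes. In bulk RNA, fewer cells that express a gene and less of its RNA per cell cannot be told apart.

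**Figure D1:**
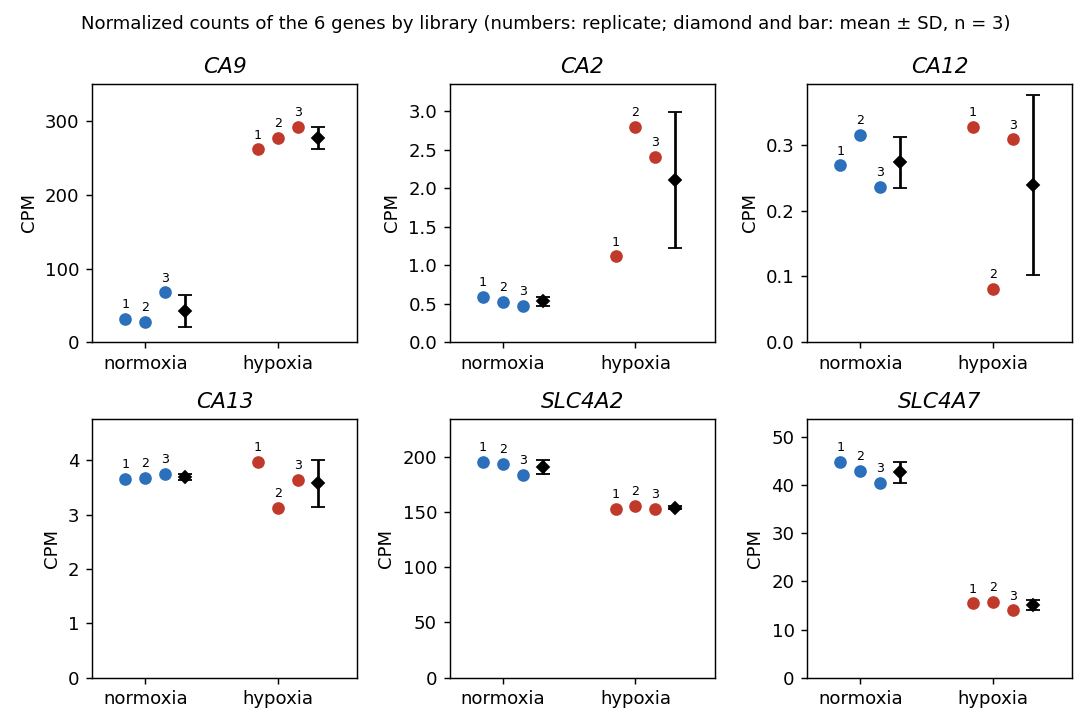
Normalized counts (CPM, vertical axes, each from 0) of the 6 genes in the 3 normoxia libraries (blue) and the 3 hypoxia libraries (red), with the replicate number above each point and the mean ± SD as a diamond and bar. CA9 lay between 27.3 and 67.7 CPM under normoxia and between 262 and 293 CPM under hypoxia, SLC4A7 lay between 14.0 and 15.8 CPM under hypoxia, below its normoxia libraries, and the conditions overlapped for CA12 and CA13.

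The upstream sequence of CA9 is shown because it holds the core letters to which hypoxia-inducible factors are known to bind. The 250 bases before its start were taken from RefSeq (GRCh38.p14), at chr9:35673678-35673927 on the plus strand, and capitals mark the letters ACGTG or GCGTG on either strand.
CA9: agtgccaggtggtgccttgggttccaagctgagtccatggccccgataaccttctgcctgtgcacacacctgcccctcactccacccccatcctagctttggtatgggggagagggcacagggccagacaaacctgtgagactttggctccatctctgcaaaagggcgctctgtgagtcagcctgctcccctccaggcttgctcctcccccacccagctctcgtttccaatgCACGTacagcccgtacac
The window held 1 match, ACGTG on the strand opposite to the gene (printed as CACGT), 18 to 14 bases before the start. Among 35116 such windows of RefSeq genes, 18.5% held ACGTG and 32.2% held GCGTG on either strand, so a match is common and describes the letters only.

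CA9 (Entrez 768) had 7993, 10312 and 9495 counts under hypoxia and 1198, 781 and 2002 under normoxia. Scaled to library size these were 262, 277 and 293 CPM under hypoxia and 32.2, 27.3 and 67.7 CPM under normoxia. The lowest hypoxia library lay far above the highest normoxia library, and normoxia replicate 3 stood above the other normoxia libraries. The means were 277 ± 15.4 CPM and 42.4 ± 22.0 CPM (SD, n = 3 each), a ratio of 6.54. The fitted log2-fold change was 2.71 with a standard error of 0.21 (adjusted p = 2.03e-09, edgeR), and 4.53% of the tested genes had one at least as large. Without normoxia replicate 3, the ratio of the means was 9.32 and the log2-fold change 3.20. Exons of CA9 share 643 bases with ARHGEF39 on the opposite strand, and whether the counting used the strand is not given in the sources used here. ARHGEF39 had 610, 723 and 641 counts under hypoxia and 724, 462 and 582 under normoxia, with a log2-fold change of 0.10.

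The high value of normoxia replicate 3 was shared by other genes of the hypoxia response. In 14 such genes, CA9 left aside, all 14 rose under hypoxia with a median log2-fold change of 2.72. Over all tested genes 39.2% were higher and the median was 0.02. The list was chosen with earlier results of these data known, so the rise of its genes is a description. Of the 14, 12 were highest in replicate 3 among the normoxia libraries, as were 37.2% of all tested genes. The level in normoxia replicate 3 divided by the mean of replicates 1 and 2 was 2.28 for CA9, 2.69 for NDRG1, a stress-response gene, and 2.23 for EGLN3, a prolyl hydroxylase that marks the hypoxia-inducible factors for breakdown. NDRG1 and EGLN3 were singled out after their values were seen. The median of this ratio was 1.17 over the 14 genes and 0.998 over all tested genes, and 378 tested genes (2.65%) had a ratio at least that of CA9. The cause was not tested.

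**Figure D2:**
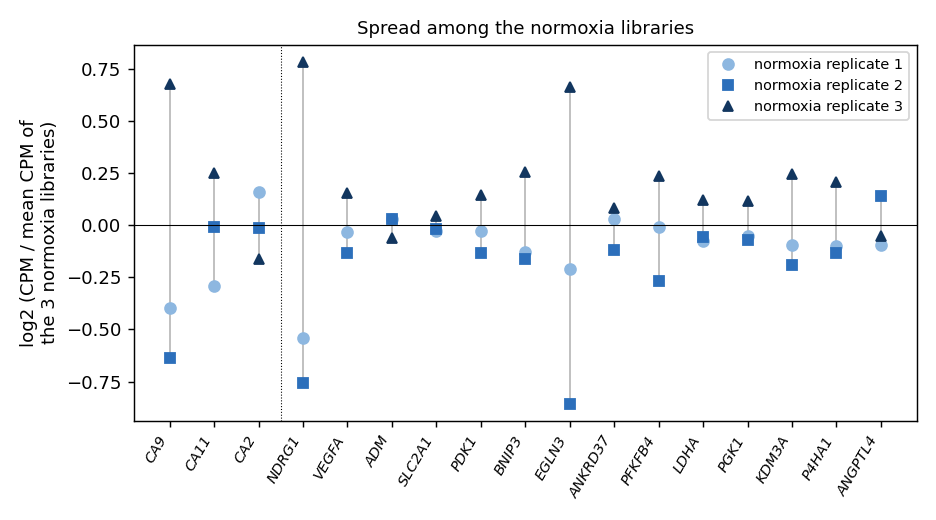
Log2 of the CPM of each normoxia library over the mean of the 3 normoxia libraries (vertical axis) for CA9, CA11 and CA2, left of the dotted line, and 14 genes of the hypoxia response, right of it. Replicate 3 (dark triangles) is the highest point for CA9, CA11 and 12 of the 14 genes, and the lowest for CA2.

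CA2 (Entrez 760), the most active cytosolic form, had 34, 104 and 78 counts under hypoxia and 22, 15 and 14 under normoxia. These were 1.11, 2.80 and 2.40 CPM under hypoxia and 0.591, 0.524 and 0.473 CPM under normoxia. The conditions did not overlap, but hypoxia replicate 1 lay at 0.428 of the mean of the other hypoxia libraries. The means were 2.10 ± 0.880 CPM and 0.530 ± 0.0592 CPM (SD, n = 3 each). The log2-fold change was 1.98 with a standard error of 0.37 (adjusted p = 0.000101, edgeR), and 8.73% of the tested genes had one at least as large. The order of the normoxia libraries differed from that of CA9, since replicate 3 was the lowest for CA2.

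CA13 (Entrez 377677), another cytosolic form, had 121, 116 and 118 counts under hypoxia and 136, 105 and 111 under normoxia. The levels were 3.96, 3.12 and 3.64 CPM under hypoxia and 3.65, 3.67 and 3.75 CPM under normoxia. The hypoxia libraries lay on both sides of the normoxia libraries. The log2-fold change was −0.05 with a standard error of 0.18 (adjusted p = 0.802, edgeR), and its approximate 95% interval ran from 0.757-fold to 1.23-fold. Its sign turned under 2 alternatives, given with the processing. A total of 191 exon bases lie opposite a gene, AC011773.3, for which no counts were analysed here.

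CA12 (Entrez 771), the other enzyme that faces outwards, had 10, 3 and 10 counts under hypoxia and 10, 9 and 7 under normoxia, and did not pass the filter on low counts. Its levels were 0.328, 0.0807 and 0.308 CPM under hypoxia and 0.269, 0.315 and 0.237 CPM under normoxia. The conditions overlapped, and hypoxia replicate 2, with 3 counts, was the lowest library. The means were 0.239 ± 0.137 CPM and 0.273 ± 0.0392 CPM (SD, n = 3 each; two-sided exact permutation test, p = 0.9, where 0.1 is the smallest p that 3 against 3 libraries can give). A difference was not detectable at this depth. The log2 ratio of CA9 to CA12 within a library rose by 3.11 (log2 CPM with a prior count of 2, from a mean of 6.87 ± 0.85 to 9.99 ± 0.83), with no overlap between the conditions. It ranged from 2.64 to 3.59 when single libraries were left out, and was lowest without hypoxia replicate 2. With so few counts of CA12, this ratio mainly restates the rise of CA9 and is given as a description.

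SLC4A7 was the member with the largest fall. Its upstream window is shown beside that of CA9 because the gene changed in the other direction. The 250 bases before the start lie at chr3:27484385-27484634 on the minus strand (RefSeq, GRCh38.p14) and are printed in the direction of the gene, with the same letters in capitals.
SLC4A7: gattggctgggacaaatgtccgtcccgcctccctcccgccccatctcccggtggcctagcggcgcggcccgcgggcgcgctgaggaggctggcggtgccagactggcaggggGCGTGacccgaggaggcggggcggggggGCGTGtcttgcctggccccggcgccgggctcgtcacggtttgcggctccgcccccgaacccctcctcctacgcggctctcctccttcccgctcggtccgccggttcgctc
This window held GCGTG at 2 places on the strand of the gene, 138 to 134 and 110 to 106 bases before the start, and no ACGTG. The window of its other listed start, at chr3:27456779-27457028, held neither. The window of CA12 held 1 GCGTG, 234 to 230 bases before its start on the opposite strand. SLC4A2 had 4 listed starts, of which 2 held GCGTG without ACGTG and 2, with overlapping windows, held both.

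SLC4A7 (Entrez 9497) had 472, 589 and 454 counts under hypoxia and 1668, 1229 and 1197 under normoxia. These were 15.5, 15.8 and 14.0 CPM under hypoxia and 44.8, 43.0 and 40.5 CPM under normoxia. The highest hypoxia library was far below the lowest normoxia library, and the libraries of each condition lay close together. The means were 15.1 ± 0.974 CPM and 42.7 ± 2.19 CPM (SD, n = 3 each), a ratio of 0.353. The log2-fold change was −1.50 with a standard error of 0.078 (adjusted p = 1.42e-11, edgeR), and 3.48% of the tested genes had one at least as low.

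SLC4A2 (Entrez 6522) had 4673, 5782 and 4972 counts under hypoxia and 7269, 5533 and 5425 under normoxia. Its levels were 153, 155 and 153 CPM under hypoxia and 195, 193 and 183 CPM under normoxia. The conditions did not overlap, with means of 154 ± 1.34 CPM and 191 ± 6.41 CPM (SD, n = 3 each). The log2-fold change was −0.31 with a standard error of 0.051 (adjusted p = 2.70e-05, edgeR), or 0.807 of the normoxia mean. SLC4A2 shares 331 exon bases with CDK5 on the opposite strand, and CDK5, with 425, 541 and 498 counts under hypoxia and 421, 297 and 338 under normoxia, had a log2-fold change of 0.40. A further 714 bases lie opposite AC010973.2, for which no counts were analysed here.

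Levels were compared between genes as FPKM, the deposited fragments scaled to gene length and to the total count of the library. Under normoxia, SLC4A2 (32.5 ± 1.22 FPKM, SD, n = 3) and CA9 (27.0 ± 14.1) led the 6 genes and overlapped, because CA9 reached 43.2 FPKM in replicate 3. They were followed by SLC4A7 (4.75 ± 0.278), CA13 (0.935 ± 0.0209), CA2 (0.334 ± 0.0403) and CA12 (0.0440 ± 0.00576), without overlap between neighbours. Under hypoxia, CA9 (182 ± 9.81 FPKM) stood above SLC4A2 (27.1 ± 0.587). SLC4A7 (1.73 ± 0.131) and CA2 (1.37 ± 0.583) followed and overlapped, CA2 also overlapped CA13 (0.934 ± 0.102), and CA12 (0.0396 ± 0.0225) was the lowest.

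SLC4A2 exceeded SLC4A7 by a geometric mean of 6.84-fold in FPKM under normoxia and 15.6-fold under hypoxia, since SLC4A7 fell further. The log2 ratio was 2.74, 2.79 and 2.80 in the normoxia libraries and 3.92, 3.91 and 4.07 in the hypoxia libraries. All hypoxia libraries were thus above all normoxia libraries (exact permutation test, two-sided, p = 0.1, the lowest that 3 against 3 can give).

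The wider carbonic anhydrase family was given by 15 genes, of which 8 were in the table and 4 passed the filter. CA9, CA11 and CA2 rose, none fell and CA13 did not pass the test, with a median log2-fold change of 2.33. Over all tested genes 39.2% were higher, 19.9% were higher with a log2-fold change over 1, 38.5% were lower and the median was 0.02. CA11, a secreted relative without catalytic activity, had 429, 426 and 452 counts under hypoxia and 63, 59 and 73 under normoxia. The conditions were far apart, with a log2-fold change of 2.67 and a standard error of 0.16 (adjusted p = 8.18e-11, edgeR). A stretch of 74 exon bases of CA11 lies opposite SEC1P. CA14, a membrane form, had 13, 4 and 18 counts under hypoxia and 2, 0 and 4 under normoxia, and CA3, a form typical of muscle, had 7, 4 and 2 counts against 0 in each normoxia library. CA8, which lacks catalytic activity, had 1 count in normoxia replicate 3 and none elsewhere. CA1, CA4, CA5A, CA5B, CA6, CA7 and CA10 were not analysed here.

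CA9 held most of the carbonic anhydrase RNA per gene length in both conditions. Its share of the summed FPKM of the family was 94.3%, 95.0% and 94.6% under hypoxia and 89.8%, 87.4% and 94.0% under normoxia. The means were 94.6% ± 0.371 and 90.4% ± 3.32 (SD, n = 3 each), a difference of 4.22 percentage points (exact permutation test, two-sided, p = 0.1, again the lowest possible), and normoxia replicate 3 lay just under the hypoxia libraries. The difference was 8.46 percentage points from counts in place of FPKM, and 2.74 without normoxia replicate 2, so its size is uncertain. CA11 followed, with 4.05% ± 0.512 under hypoxia and 4.43% ± 1.44 under normoxia. The share of CA13 was 0.487% ± 0.0733 under hypoxia and 3.60% ± 1.36 under normoxia, while its own level was 0.934 and 0.935 FPKM. The summed FPKM of the family was 182, 195 and 201 under hypoxia and 23.2, 19.5 and 45.9 under normoxia.

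The SLC4 proteins exchange or cotransport bicarbonate and related ions. All 10 genes were in the table and 7 passed the filter, 2 of them (SLC4A5 and SLC4A9) only through the hypoxia libraries. Leaving these 2 aside, since a gene that enters the test through the condition where it is high had to differ, SLC4A3 rose and SLC4A2, SLC4A7 and SLC4A11 fell. Among all tested genes 39.2% were higher and 38.5% lower, so that calls in both directions are also the background. SLC4A8, a sodium-driven exchanger, did not pass the test, at a log2-fold change of 0.60 (adjusted p = 0.190, edgeR). SLC4A3, an anion exchanger of the same class as SLC4A2, had 20.0, 20.8 and 17.3 CPM under hypoxia and 8.98, 8.63 and 9.97 CPM under normoxia. It rose by a log2-fold change of 1.08 (SE 0.11, adjusted p = 5.76e-08, edgeR), whereas SLC4A2 fell, and the conditions did not overlap for either gene. In FPKM, however, SLC4A3 reached 4.09 ± 0.440 under hypoxia, below the 27.1 of SLC4A2.

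SLC4A11, a transporter known for its role in the corneal endothelium, fell as SLC4A2 and SLC4A7 did. It had 40.7, 40.1 and 37.4 CPM under hypoxia and 72.2, 65.2 and 61.7 CPM under normoxia, a log2-fold change of −0.75 (SE 0.068, adjusted p = 1.68e-08, edgeR) without overlap. SLC4A9 had 18, 34 and 19 counts under hypoxia and 2, 1 and 1 under normoxia. Against a floor of 3 counts per normoxia library it was at least 7.28-fold higher under hypoxia. SLC4A5, a sodium bicarbonate cotransporter, had 16, 14 and 27 counts under hypoxia and 2, 0 and 9 under normoxia. Its fitted log2-fold change of 2.27 rose to 4.08 without normoxia replicate 3, so the size is uncertain. The changes of SLC4A9 and SLC4A5 are given as a description. SLC4A10 had 12, 4 and 8 counts under hypoxia and 0, 0 and 1 under normoxia, SLC4A4 had 1, 1 and 4 against 0, 4 and 1, and SLC4A1, the exchanger of red cells, had 1 count in all. The 3 SLC4 genes with the highest FPKM under normoxia, SLC4A2, SLC4A11 and SLC4A7, were those that fell.

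**Figure D3:**
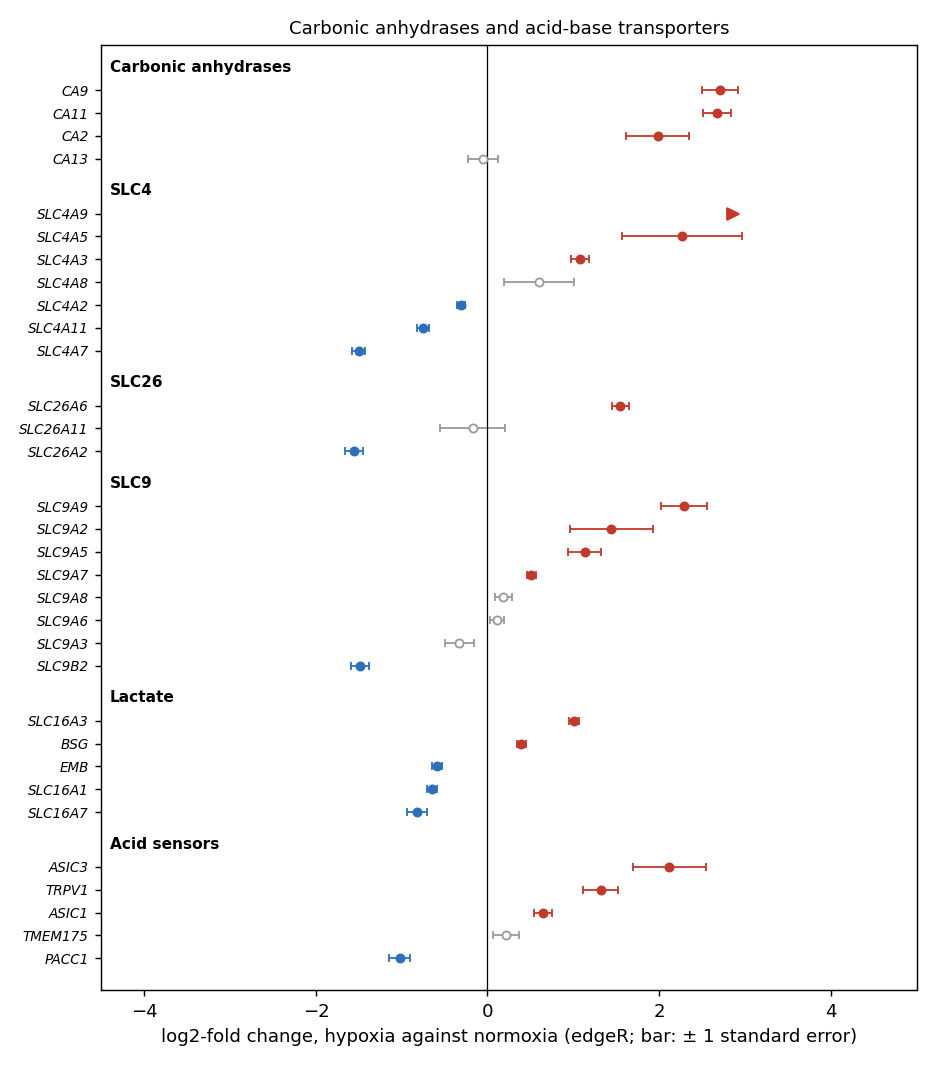
Log2-fold changes of hypoxia against normoxia (horizontal axis, edgeR, bars ± 1 standard error) for carbonic anhydrases and acid-base transporters and sensors that passed the filter, with genes that rose in red, genes that fell in blue and genes that did not pass the test as open grey circles. The triangle is the lower bound for SLC4A9. CA9, CA11 and CA2 lie right of 0, CA13 lies at −0.05, and the SLC4, SLC26, SLC9 and lactate groups each hold genes on both sides.

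Over 8 lists of acid-base genes (carbonic anhydrases, SLC4, SLC26 and SLC9 transporters, partners of the exchangers, lactate transport, the vacuolar proton pump and acid sensors), 106 genes were listed, 86 were in the table and 64 passed the filter. Of these, 24 rose, 28 fell and 12 did not pass the test, with a median log2-fold change of −0.05. A log2-fold change over 1 was reached by 15 of the genes that rose, and a change under −1 by 5 of those that fell. The genes that rose, also those over 1, include SLC4A5 and SLC4A9, which were tested only through the hypoxia libraries. They also include ASIC3 and SLC9A2, which passed the filter through their hypoxia libraries, since not all normoxia libraries reached its cutoff. These shares lay near the 39.2% higher, 38.5% lower, 19.9% over 1 and 10.5% under −1 of all tested genes, and the counts of the single lists that follow are to be read against the same background.

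Among the SLC26 anion exchangers, 7 of 11 genes were in the table and 3 were tested. SLC26A6, a chloride and bicarbonate exchanger of epithelia, had 60.7, 52.9 and 55.4 CPM under hypoxia and 19.1, 16.1 and 22.5 CPM under normoxia, a log2-fold change of 1.55 (SE 0.095, adjusted p = 1.05e-10, edgeR). SLC26A2, a sulphate transporter, went the other way, with 8.84, 9.84 and 7.49 CPM against 26.9, 24.3 and 25.9 CPM (log2-fold change −1.55, adjusted p = 3.69e-10). Neither gene overlapped between conditions, and SLC26A11 did not pass the test (log2-fold change −0.17, adjusted p = 0.687).

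The SLC9 proteins exchange sodium for protons and so extrude acid or set the pH of organelles. Of 13 genes, 11 were in the table and 9 were tested, and 5 rose, 1 fell and 3 did not pass the test (median log2-fold change 0.20). SLC9A9, an endosomal form, had 2.72, 3.84 and 3.91 CPM under hypoxia and 0.726, 0.594 and 0.811 CPM under normoxia (log2-fold change 2.29, adjusted p = 5.34e-07, edgeR), and SLC9A5 rose by 1.13 on the log2 scale (adjusted p = 4.42e-05). SLC9A2 passed the test at 1.44 (adjusted p = 0.0119, edgeR) with overlapping conditions. Under normoxia it had 0.161, 0.629 and 0.270 CPM, so it passed the filter through its hypoxia libraries. Its log2-fold change rose to 2.12 without normoxia replicate 2. The call was lost without hypoxia replicate 1 (adjusted p = 0.0592, edgeR) or normoxia replicate 1 (adjusted p = 0.0810, edgeR). SLC9B2, a more distant relative of the exchangers, fell from 17.3 ± 0.726 CPM to 6.18 ± 0.157 CPM (SD, n = 3 each; log2-fold change −1.49, adjusted p = 6.64e-10).

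Of 11 partners of these exchangers, 9 were tested, 2 rose and 7 fell (median log2-fold change −0.19). CHP1, a calcium-binding protein that binds sodium-proton exchangers of the SLC9 family, had 170, 156 and 161 CPM under hypoxia and 95.6, 98.4 and 91.9 CPM under normoxia. It rose by 0.77 on the log2 scale (SE 0.055, adjusted p = 7.34e-10, edgeR) without overlap. AHCYL2, a relative of the transporter regulator IRBIT, also rose (log2-fold change 0.45, adjusted p = 0.000397). Among those that fell were EZR, the membrane linker ezrin (−0.43), and the scaffold proteins SLC9A3R1 and SLC9A3R2 (−0.38 each).

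Lactate leaves and enters cells together with a proton, through carriers of the SLC16 family that need the chaperone BSG or EMB. SLC16A3, the carrier known for lactate export, had 653, 652 and 666 CPM under hypoxia and 314, 311 and 357 CPM under normoxia (log2-fold change 1.01, adjusted p = 4.18e-11, edgeR). SLC16A1, a carrier of wide distribution, had 59.5, 54.4 and 58.2 CPM against 88.1, 93.4 and 87.8 CPM (log2-fold change −0.65, adjusted p = 1.47e-08). Neither gene overlapped between conditions. Of the chaperones, BSG rose (0.39) and EMB fell (−0.59). SLC16A7 also fell, by 0.82 on the log2 scale. In FPKM, SLC16A3 exceeded SLC16A1 by 5.06-fold under normoxia and 15.9-fold under hypoxia (geometric means of 3 libraries). This ratio restates the separate changes of the carriers, which went in opposite directions without overlap, and no test of it is used here.

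The vacuolar proton pump (V-ATPase) moves protons into organelles or out of the cell, with a membrane domain (V0) and a cytosolic domain that splits ATP (V1). Of 25 genes, 24 were in the table and 21 were tested. Of these 5 rose, 11 fell and 5 did not pass the test, with a median log2-fold change of −0.26, beside 39.2% higher and 38.5% lower and a median of 0.02 over all tested genes. In the V0 domain 1 of 8 rose and 5 fell, in the V1 domain 2 of 11 rose and 6 fell, and both accessory genes, ATP6AP1 and ATP6AP2, rose. The alternative forms of V0 subunit a, which direct the pump to different membranes, moved apart. TCIRG1, the a3 form of osteoclasts and lysosomes, had 119, 120 and 113 CPM under hypoxia and 44.8, 34.0 and 46.3 CPM under normoxia (log2-fold change 1.49, adjusted p = 4.20e-11, edgeR). ATP6V0A2, the a2 form of the Golgi and endosomes, had 12.9, 9.52 and 14.0 CPM under hypoxia and 38.2, 42.1 and 36.7 CPM under normoxia (log2-fold change −1.69, adjusted p = 2.79e-10). Neither overlapped between conditions.

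ATP6V0A1, named after its values were seen, had a log2-fold change of 0.01 (adjusted p = 0.909, edgeR), whose sign turned under alternatives. In FPKM, TCIRG1 was below ATP6V0A1 in the normoxia libraries (0.782-fold) and above it in the hypoxia libraries (2.21-fold, geometric means of 3 libraries; exact permutation test of the log2 ratio, two-sided, p = 0.1, again the lowest possible). TCIRG1 exceeded ATP6V0A2 by 1.62-fold under normoxia and 14.9-fold under hypoxia. Both genes had separated between the conditions in opposite directions, so their ratio restates those changes and no test of it is used here. Further genes that moved most were ATP6V1B1 (1.33), ATP6AP2 (0.60), ATP6V0B (−0.93) and ATP6V0E2 (−0.78), all in log2-fold change. ATP6V1B1, the B subunit of kidney and inner ear, was scarce, with 1.81 ± 0.404 CPM under hypoxia and 0.713 ± 0.113 CPM under normoxia (SD, n = 3 each).

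**Figure D4:**
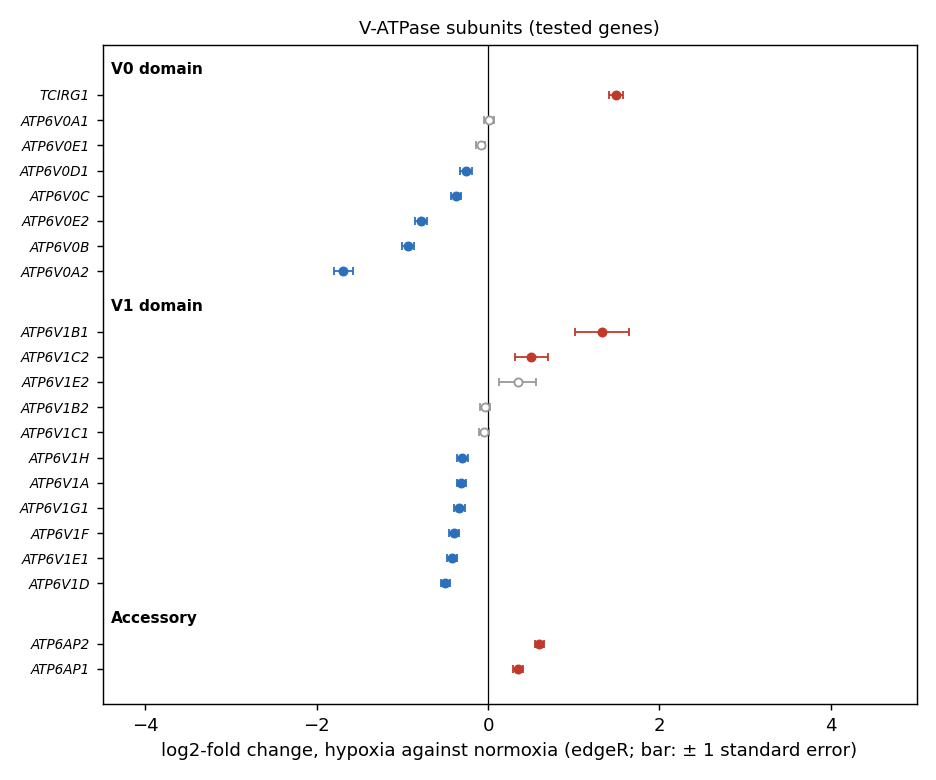
Log2-fold changes of hypoxia against normoxia (horizontal axis, edgeR, bars ± 1 standard error) for the 21 tested V-ATPase genes by domain, with genes that rose in red, genes that fell in blue and genes that did not pass the test as open grey circles. TCIRG1 at 1.49 and ATP6V0A2 at −1.69, alternative forms of 1 subunit, mark the ends of the range.

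**Figure D5:**
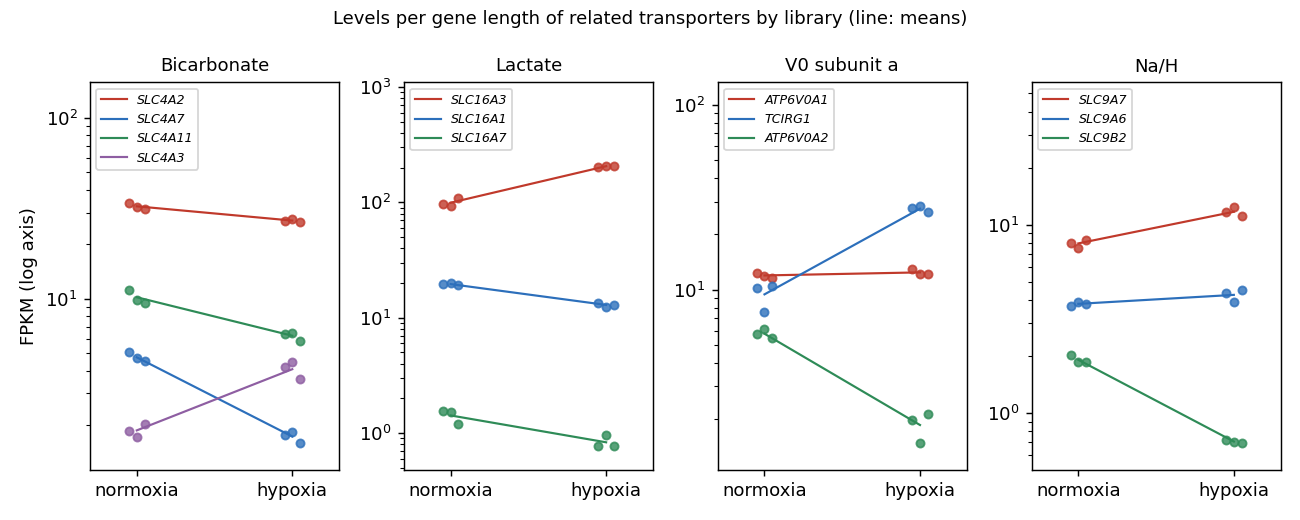
FPKM (vertical log axes) of related transporters in each normoxia and hypoxia library, with lines that join the means of the 3 libraries per condition. SLC4A7 falls from 4.75 to 1.73 while SLC4A3 rises to 4.09, SLC16A3 and SLC16A1 move apart, and TCIRG1 passes from below to above ATP6V0A1.

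Of 15 acid sensors and proton channels, 11 were in the table and 6 were tested, all at low levels. The acid-sensing channels ASIC3 (log2-fold change 2.12) and ASIC1 (0.65) rose, as did TRPV1 (1.32), a channel opened by heat, acid and capsaicin. ASIC3 had 0.188, 0.210 and 0.338 CPM under normoxia, against a filter of about 0.32 CPM in at least 3 libraries. It thus passed the filter through its hypoxia libraries, and its rise is given as a description. PACC1, the acid-activated chloride channel, had 7.76, 6.40 and 6.41 CPM under hypoxia and 12.7, 15.6 and 13.5 CPM under normoxia (log2-fold change −1.02, adjusted p = 7.78e-07, edgeR). It was lower in every hypoxia library than in any normoxia library, and TMEM175 did not pass the test (0.22).

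The genes whose pattern over the 6 libraries was most like that of each of the 5 tested members, CA12 left out, were found by the root mean square difference in log2 CPM after centring on the normoxia mean. For CA9 these were PARD6G-AS1 (0.07), PBXIP1 (0.07) and COL5A1 (0.14), with mean levels of 0.0859, 7.87 and 17.9 CPM under normoxia and 0.943, 52.8 and 116 CPM under hypoxia. PARD6G-AS1 was thus near the floor, where the prior count of 2 shrinks log2 CPM, and its fitted log2-fold change was 3.43 against 2.71 for CA9. Its normoxia mean lay under the filter cutoff of about 0.32 CPM, so it entered this search through hypoxia libraries. COL5A1 is a fibrillar collagen. For CA2 they were WWC2-AS2 (0.19), LOC107984220 (0.21) and ZNF117 (0.22), at 0.136, 0.355 and 0.178 CPM under normoxia. CA2 itself was at 0.530 CPM, so these distances too were shrunk by the prior count. WWC2-AS2 and ZNF117 also lay under the filter cutoff in their normoxia means and entered through hypoxia libraries. For CA13 they were HADH (0.03), SPR (0.03) and C6orf47 (0.04). For SLC4A2 the nearest was ATP6V1H (0.01), the V1 subunit H of the proton pump, at a log2-fold change of −0.30, followed by KIF1B (0.02) and PPIL4 (0.02). For SLC4A7 they were NOL9 (0.04), TXLNG (0.05) and TACC3 (0.05), with log2-fold changes of −1.51, −1.48 and −1.44.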

How the data were processed

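The authors deposited raw counts, whole numbers of reads per gene, and FPKM for the same genes, scaled per gene length and total count. RNA was extracted with an RNeasy kit and libraries were made with a SMARTer kit. The aligner and counting tool are not given in the sources used here, and the submitters' processing notes name the mouse builds GRCm38 and mm10 although the genes are human. For the listed genes, FPKM in all libraries followed the counts with a single length per gene, within 9.57e-06%. That length was worked out from the same counts and FPKM and was not compared with an annotation.

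Counts were tested with edgeR 4.0.16 (R 4.3.3; TMM, filterByExpr, glmQLFit and glmQLFTest, condition as the only term), with Benjamini-Hochberg adjustment. The filter kept genes at about 0.32 CPM or more in at least 3 libraries. CPM used TMM-adjusted totals, and the standard error is the log2-fold change over the square root of F. Alternatives were DESeq2 1.42.0, limma 3.58.1 on log2(FPKM + 1), DESeq2 size factors, other filters, the replicate block and leave-one-out. The edgeR, DESeq2 and limma tests were tried on simulated counts, in which far fewer genes changed than were called in these data. No libraries were duplicates (chi-square per gene 4.90 to 10.8). Exon overlaps came from GENCODE v29. Upstream windows are not used here for 2 members.

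The members and lists were chosen with earlier results of these data known. Named genes are the members, all carbonic anhydrase and SLC4 genes, the 3 largest changes per direction in each list, and the 3 genes most like each tested member. Some genes of these lists are not reported here, although the counts include them.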

Additional observations from a re-analysis of the deposited data

How the results depend on the processing

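CA9, CA2, SLC4A2 and SLC4A7 kept their direction and their adjusted p-value under 0.05 in every alternative that gave them a value, with log2-fold changes of 2.48 to 3.20 for CA9, 0.80 to 2.28 for CA2, −0.35 to −0.23 for SLC4A2 and −1.56 to −1.07 for SLC4A7. The lowest CA2 value came from limma on log2(FPKM + 1), a scale on which low genes move little. The sign of CA13 turned with at least 10 counts in every library (0.026, adjusted p = 0.892, edgeR) and ranged from −0.14 to 0.038 when single libraries were left out, above 0 without hypoxia replicate 2. With at least 10 counts in every library the signs of ATP6V1B2 (0.043) and ATP6V1C1 (0.030) also turned, and with no filter that of ATP6V0A1 (−0.033). When single libraries were left out ATP6V0A1 ranged from −0.033 to 0.030, ATP6V1B2 from −0.11 to 0.0078 and SLC26A11 from −0.45 to 0.14. None of these genes, CA13 included, passed the test. The difference in the share of CA9 was 8.46 percentage points from counts in place of FPKM, and 2.74 to 6.01 when single libraries were left out. Over the 8 lists, 21 to 32 genes rose and 26 to 28 fell, and of 59 genes beside the members 4 lost the call in at least 1 alternative (AHCYL1, ATP6V1C2, SLC9A2 and WNK1). With no filter, 5 carbonic anhydrases were called higher in place of 3, 5 acid sensors in place of 3 and 2 SLC26 genes in place of 1. With at least 10 counts in every library 1 SLC4 gene was higher in place of 3, since SLC4A5 and SLC4A9 were not tested, and without normoxia replicate 2 there were 2 lower SLC9 genes in place of 1. The cause was not tested beyond these constructions.

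Replicate numbers did not pair the libraries, as same-numbered libraries had correlations of 0.018, −0.069 and 0.0012 in their deviations from the condition means. With the replicate block CA9 had a log2-fold change of 2.81, CA2 1.89, CA13 −0.05, SLC4A2 −0.31 and SLC4A7 −1.50, and the log2 ratio of CA9 to CA12 differed by 3.11. The depth limits CA12, CA14, CA3 and the low SLC4 genes, which had few counts per library. With 3 libraries per condition, no exact permutation test could pass 0.05.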
